A study of Mus musculus with 12 samples.

Results

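The genes described here are 4 Krüppel-like factors, Klf2, Klf4, Klf6 and Klf13, and the 3 members of the NR4A nuclear receptor family, Nr4a1, Nr4a2 and Nr4a3. They were chosen by name, as factors of monocyte differentiation, and all 7 were found among the 55487 genes of the count table. Their levels were measured by bulk RNA-seq in mouse monocytes sorted as Ly6C+, the surface phenotype of classical monocytes. There were 12 libraries in 4 groups of 3. The KO libraries came from fetal liver at embryonic day E13.5 and carry the genotype label KO. The WT libraries came from wild-type fetal liver, WT 1 at E13.5 and WT 2 and WT 3 at E15.5. The Mixed libraries came from fetal liver at E15.5, also with the genotype label WT, and the BM libraries from wild-type bone marrow with no age given. The labels do not say which allele the KO libraries carry or what Mixed means. In the title of the series stand cMaf and Zeb2. Z165KO mice and tissue macrophages appear in the study's design text, but no label ties a library to them.

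Krüppel-like factors bind GC-rich and CACCC sequences through a set of zinc fingers at the end of the protein. KLF4 is a factor of monocyte differentiation. KLF2 is best known for restraining activation and directing migration in lymphocytes, endothelium and myeloid cells. NR4A receptors bind DNA without a known hormone and are switched on quickly by many stimuli. NR4A1, also called Nur77, is required in the mouse for the patrolling, Ly6C-low monocytes that arise from Ly6C+ cells, and in those cells KLF2 is known to act on an enhancer of Nr4a1.

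The 4 genes that differed most between bone marrow and fetal liver are shown by their promoter windows (RefSeq, build GRCm38.p6, 250 bases before to 50 bases after the annotated start, 5′ to 3′ on the gene's own strand). Capitals mark the letters TGACG on either strand, the core of a site bound by CREB-type factors, and in Klf2 also a match to the MEF2 motif. The windows are chr15:101266596-101266895 (plus strand, Nr4a1), chr8:72318812-72319111 (plus, Klf2), chr7:63938866-63939165 (minus, Klf13) and chr4:55532426-55532725 (minus, Klf4).
Nr4a1: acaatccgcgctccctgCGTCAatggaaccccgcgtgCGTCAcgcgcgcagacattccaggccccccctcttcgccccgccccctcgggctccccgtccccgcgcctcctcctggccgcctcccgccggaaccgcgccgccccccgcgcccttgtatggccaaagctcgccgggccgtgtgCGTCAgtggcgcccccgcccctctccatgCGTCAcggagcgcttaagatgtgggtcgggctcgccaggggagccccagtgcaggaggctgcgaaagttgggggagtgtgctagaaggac
Klf2: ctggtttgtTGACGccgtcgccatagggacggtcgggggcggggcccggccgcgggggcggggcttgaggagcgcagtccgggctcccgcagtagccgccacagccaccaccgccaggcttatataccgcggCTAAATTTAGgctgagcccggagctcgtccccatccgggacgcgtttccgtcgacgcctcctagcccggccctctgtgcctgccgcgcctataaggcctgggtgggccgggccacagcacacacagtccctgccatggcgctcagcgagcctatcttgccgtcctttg
Klf13: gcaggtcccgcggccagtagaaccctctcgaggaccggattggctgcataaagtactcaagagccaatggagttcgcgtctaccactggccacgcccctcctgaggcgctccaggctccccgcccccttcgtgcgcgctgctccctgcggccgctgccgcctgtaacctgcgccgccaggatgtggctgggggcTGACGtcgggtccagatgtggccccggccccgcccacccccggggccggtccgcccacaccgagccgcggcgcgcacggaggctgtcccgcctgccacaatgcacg
Klf4: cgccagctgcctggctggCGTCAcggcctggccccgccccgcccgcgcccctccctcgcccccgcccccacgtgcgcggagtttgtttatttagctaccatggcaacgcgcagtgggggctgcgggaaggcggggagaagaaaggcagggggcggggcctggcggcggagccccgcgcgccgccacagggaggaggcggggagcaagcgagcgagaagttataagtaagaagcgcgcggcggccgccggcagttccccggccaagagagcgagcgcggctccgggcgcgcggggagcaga

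All 7 members had a window in the RefSeq table. TGACG was found, on both strands searched, in 6 of the 7 windows (not in Klf6) and in 20.8% of 32851 windows of the same length. It occurred at 4 places in each of Nr4a1, Nr4a2 and Nr4a3 and once in each of Klf2, Klf4 and Klf13. The full palindrome TGACGTCA, which contains TGACG on both strands, was in none of the 7 windows and in 1.79% of all. The GC box GGGCGG was in all 7 windows and in 35.7% of all, and the members' windows are rich in G and C (63 to 81.7%). The MEF2 motif was in the Klf2 window alone among the members, at base -118 from the start, and in 0.557% of all windows. Neither the NR4A monomer site AAAGGTCA (1.51% of all windows) nor the CACCC box CCACACCC (3.56%) was in any of the 7. These are matches of letters in a short window and say nothing about binding.

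Total counts per library ran from 17384911 to 24473471, and 14618 genes passed the filter on low counts. Levels are CPM, counts scaled to library size, on TMM-scaled library sizes, a scaling that reduces the effect of a few dominant genes. Zeb2 was at 20.1 to 23.8 CPM in the KO libraries and at 141 to 165 CPM in WT (log2 change -2.75, adjusted p = 3.95e-17), so the KO label went with low Zeb2 in each of the 3 libraries. Maf, which encodes c-Maf, was at 7.94 to 12.7 CPM in KO and 12.1 to 14.9 in WT and was not called (log2 change -0.45, adjusted p = 0.0549). The 10 classical monocyte markers were all detected in each group, and their sum was lowest in KO (7915 to 8920 CPM). In WT the sum was 10978 to 12471 CPM. Mixed followed with 14582 to 14675 CPM, and BM had the highest sum, 35095 to 35768 CPM. Markers of 4 other cell types had a higher sum in every KO library than in any WT library. The 11 neutrophil genes summed to 10907 to 13666 CPM against 4497 to 6348 CPM (6 higher and 0 lower in the test). The 9 conventional dendritic cell genes summed to 804 to 872 CPM against 32.9 to 44.8 CPM (8 higher and 1 lower). The 5 plasmacytoid dendritic cell genes summed to 127 to 160 CPM against 98.9 to 99.7 CPM (2 higher and 0 lower of 4 tested). The 6 B cell genes summed to 130 to 144 CPM against 79.6 to 87.3 CPM, but of 5 tested only Ms4a1 was higher, Cd79b was lower and the median log2 change was 0.02. Erythroid markers summed to 326 to 1010 CPM in fetal liver libraries and 2.97 to 12.8 in BM. Endothelial markers summed to 17.2 to 21 CPM in WT, to 9.51 to 12 in the KO libraries, to 10.7 to 11.5 in the Mixed libraries and to 1.49 to 1.98 in BM, with Cldn5 at 0 counts in BM and Esam in Mixed. T and NK cell markers were at 1.79 CPM or less in sum. In bulk samples, fewer cells of a type and less RNA per cell cannot be told apart.

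Bone marrow monocytes had higher levels of 5 of these factors than fetal liver monocytes. Of the 6 members that passed the low-count filter, 5 were higher in BM than in WT and 0 lower, where 64% of all tested genes were called in either direction and 32.1% were higher. The same count, 5 higher and 0 lower, was found against Mixed (58.4% of all genes called, 29.5% higher) and against KO (63.8% called, 31.8% higher). These 3 comparisons share the BM libraries. Fetal liver libraries are embryonic and BM libraries have no age given, so tissue and age cannot be told apart in them. Against KO the genotype label differs as well. Markers of other cell types also differed between BM and fetal liver. Conventional dendritic cell markers summed to 231 to 266 CPM in BM against 27.6 to 33 CPM in Mixed and the 32.9 to 44.8 CPM of WT, with 6 of 9 higher and 1 lower than in WT. Neutrophil markers summed to 985 to 1174 CPM in BM and 3666 to 3974 CPM in Mixed, with 2 of 11 higher and 6 lower in BM than in WT. Of 5 tested B cell markers 4 were higher and 1, Cd79b, was lower in BM than in WT, and their sum was lower (41 to 44.9 CPM). All 6 erythroid and all 5 hepatocyte markers were lower in BM than in WT. The part of these markers in the members' differences was not tested. KO differed from WT less and in both directions: 2 members were higher and 1 lower (38.1% of all genes called). Against Mixed, 1 member was higher in KO and 3 were lower (36.7% of all genes called). All KO libraries were of the earlier embryonic day and all Mixed libraries of the later, so genotype label and age cannot be told apart there. Mixed had 2 members higher than WT and 0 lower, where 8.07% of all genes were called and 4.21% were higher. The median log2 change of the 6 tested members was 1.84 for BM against WT, -0.09 for KO against WT and 0.22 for Mixed against WT, beside 0.003, -0.029 and -0.006 over all tested genes. Calls are edgeR quasi-likelihood tests with a Benjamini-Hochberg adjusted p under 0.05 over all tested genes. Nr4a3 was too low to be tested, and Nr4a2 was tested and called in none of the 6 comparisons (edgeR adjusted p from 0.31 to 0.853, with 0 of 6 unadjusted p under 0.05 and 0 called by DESeq2).

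**Figure D1:**
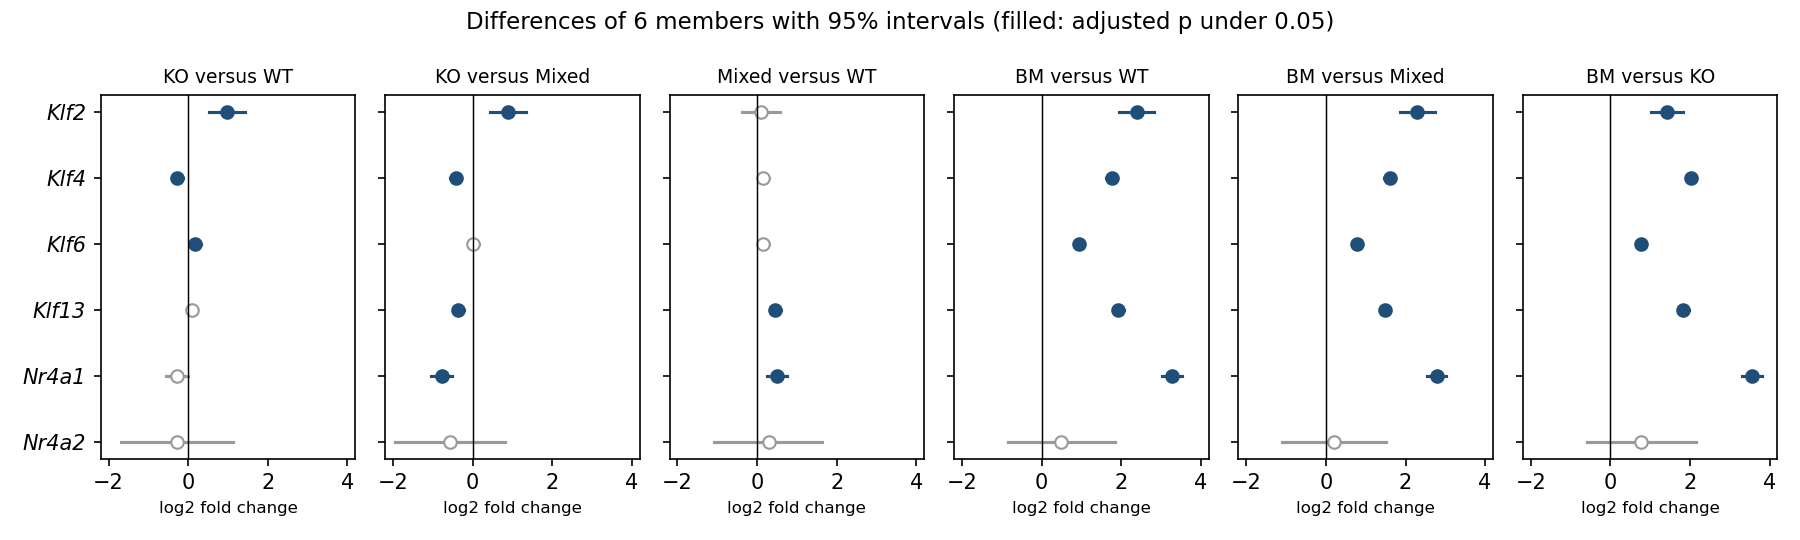
Log2 fold changes (horizontal axis, first group minus second) of the 6 tested members in the 6 comparisons, with 95% intervals that are not adjusted for the number of genes. Filled points passed an adjusted p under 0.05. In the 3 comparisons with BM all 6 members lie to the right of 0, with Nr4a2 alone unfilled, whereas in KO against WT Klf2 and Klf6 lie to the right and Klf4 to the left.

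Klf4, a factor required for monocyte differentiation, was high in bone marrow and lowest in KO. Its level was 172, 177 and 189 CPM in BM, 57.1, 62.1 and 58.3 in Mixed, 55.7, 52.2 and 51.3 in WT and 45.2, 45.3 and 41.9 in KO. All 3 KO libraries lay below all WT libraries, WT 1 of the same embryonic day included, and no pair of groups overlapped. The fall from WT to KO was small (log2 change -0.27, SE 0.0649, adjusted p = 0.00244). KO was also below Mixed, a group of the later embryonic day (log2 change -0.42, SE 0.0645, adjusted p = 1.75e-05). BM was 3.38-fold above WT (log2 change 1.76, SE 0.0637, adjusted p = 5.65e-16) and 4.06-fold above KO. Mixed and WT did not overlap, but their difference was not called (log2 change 0.16, 95% interval 0.03 to 0.29, adjusted p = 0.138). Klf4 is a gene of chromosome 4 (55527143 to 55532466, minus strand, GRCm38).

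Klf2, a factor of quiescence and migration, was the member that differed most between KO and WT. It was scarce in fetal liver, with 33 to 90 counts per library. Its level was 4.09, 4.26 and 3.72 CPM in KO, 1.84, 2.01 and 2.25 in WT and 2.29, 2.28 and 1.97 in Mixed. The KO libraries thus lay above every WT and Mixed library, and WT and Mixed overlapped. Klf2 rose 1.97-fold from WT to KO (log2 change 0.98, SE 0.218, 95% interval 0.52 to 1.43, adjusted p = 0.00112), a call kept in all 19 alternatives. KO was 1.84-fold above Mixed (adjusted p = 0.00254), a call lost with the embryonic day as a covariate (adjusted p = 0.0984, range 0.000791 to 0.0984). In BM it was at 8.02, 10.2 and 14 CPM, the widest spread relative to its mean among the called members, and still 5.25-fold above WT (adjusted p = 1.68e-09) and 2.67-fold above KO (adjusted p = 1.61e-06). Between Mixed and WT it was not called (log2 change 0.10, 95% interval -0.38 to 0.57). Neutrophil markers, those of both dendritic cell types and the B cell gene Ms4a1 moved with Klf2 in KO, as given above, and their part in this difference was not tested. T and NK cell markers were near 0 in both groups (0.315 to 0.591 CPM in KO and 0.0447 to 0.611 in WT, with Cd3e at 0 counts). The endothelial marker sum was lower in BM than in WT, but of 3 tested markers only 1, Egfl7, was called (1.27 against 15.9 CPM). The part of endothelial and T and NK cell markers in the level of Klf2 was not tested either. Klf2 lies on chromosome 8 (72319033 to 72321656, plus strand).

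Klf6, a broadly expressed factor induced by injury and inflammatory signals, differed least among the called members. It was at 230, 239 and 237 CPM in BM, 148, 133 and 133 in KO, 132, 145 and 132 in Mixed and 130, 119 and 117 in WT. Bone marrow stood apart from every fetal liver library, while KO and Mixed overlapped. BM was 1.93-fold above WT (log2 change 0.95, SE 0.0611, adjusted p = 9.54e-12). KO passed the test against WT (log2 change 0.18, SE 0.0612, adjusted p = 0.0238), but WT 1, of the same embryonic day as KO, was at 130 CPM beside 133 in KO 2 and KO 3. The call was lost without KO 1 (adjusted p = 0.147), WT 2 (0.0911) or WT 3 (0.0922), with the embryonic day as a covariate (0.417) and with total-count scaling (0.329). Over its 19 alternatives the adjusted p ran from 0.00923 to 0.417. Between KO and Mixed the log2 change was 0.02 (95% interval -0.11 to 0.15, adjusted p = 0.841). Klf6 lies on chromosome 13 (5861482 to 5870394, plus strand).

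Klf13, known in T cells as an activator of the chemokine gene Ccl5, was the most abundant member in every group. It was at 1348, 1530 and 1388 CPM in BM, 539, 476 and 515 in Mixed, 382, 398 and 417 in KO and 346, 366 and 405 in WT. KO and WT overlapped (log2 change 0.10, 95% interval -0.03 to 0.23, adjusted p = 0.242), and all Mixed libraries lay above both. Mixed was 1.37-fold above WT (log2 change 0.45, SE 0.0633, adjusted p = 0.000264), a call kept in all 19 alternatives. KO was below Mixed (log2 change -0.36, SE 0.0632, adjusted p = 0.00012), a call lost with the embryonic day as a covariate (adjusted p = 0.257, range over alternatives 9.99e-08 to 0.257). BM was 3.82-fold above WT (adjusted p = 2.42e-16) and 3.56-fold above KO. Klf13 lies on chromosome 7 (63886351 to 63938915, minus strand). The genes Gm27252 and E030018B13Rik lie within it on the opposite strand and had 82 and 14 counts over all 12 libraries. As the use of strand in counting is not given, reads of these genes and of Klf13 cannot be told apart.

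**Figure D2:**
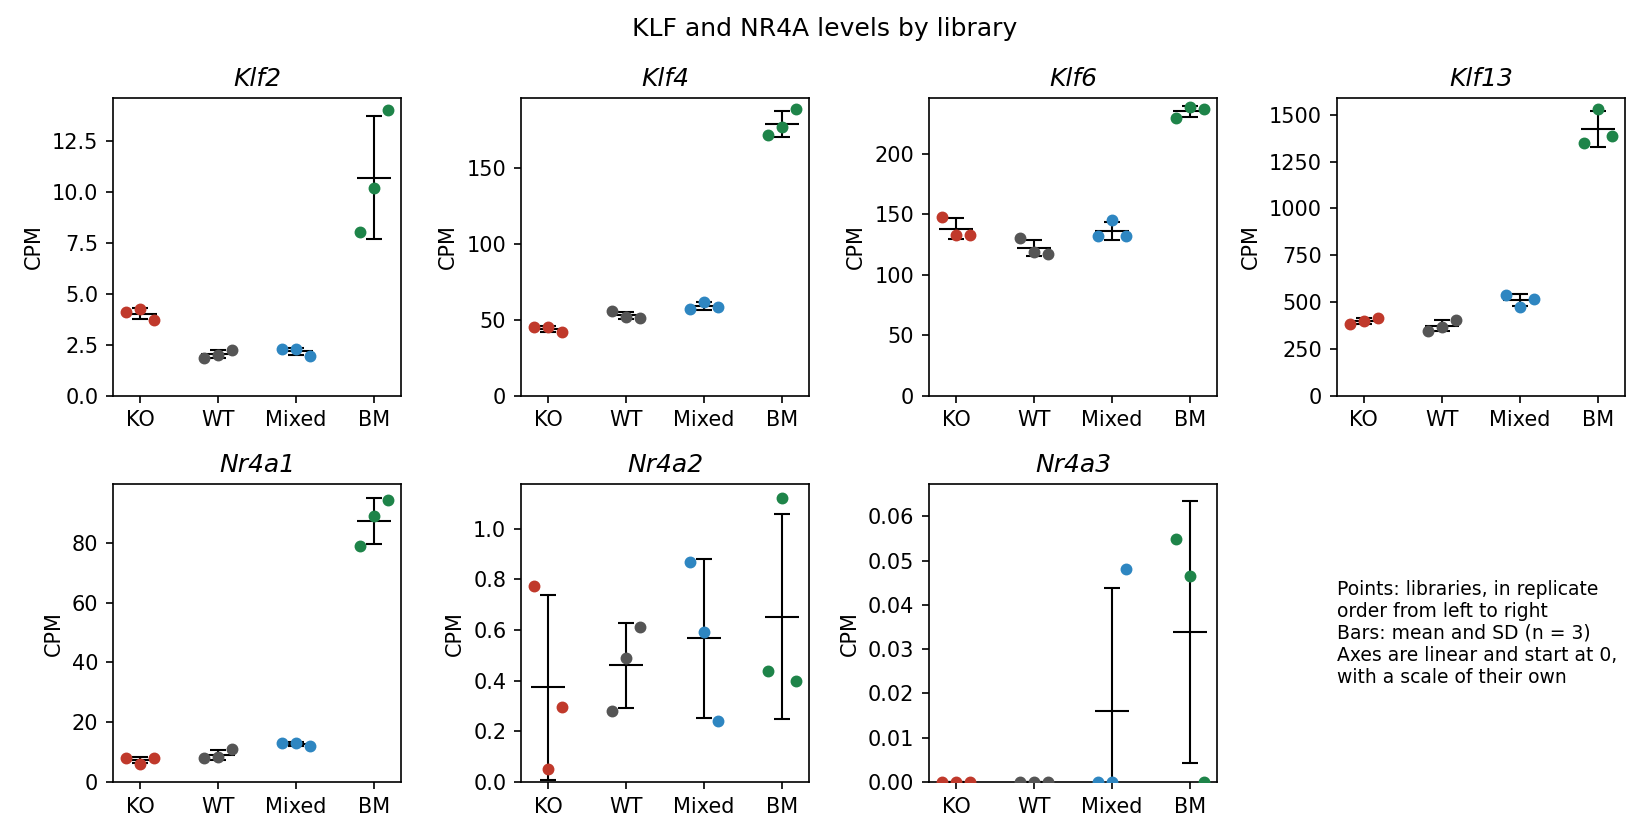
Level (CPM, linear axes from 0, each with its own scale) of the 7 members in each library, with the mean and SD of 3 libraries per group. BM libraries stand above the fetal liver libraries for Klf2, Klf4, Klf6, Klf13 and Nr4a1, KO libraries lie above WT for Klf2 and below for Klf4, and Nr4a2 and Nr4a3 are close to the detection limit in all groups.

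Nr4a1, the factor that Ly6C-low monocytes need, showed the largest difference between BM and fetal liver of any member. Its level was 79, 89 and 94.3 CPM in BM, against 13, 13.1 and 12.1 in Mixed, 7.92, 8.18 and 10.9 in WT and 7.96, 6.04 and 8.07 in KO. No fetal liver library came near bone marrow, Mixed lay above WT and KO, and KO and WT overlapped. BM was 9.71-fold above WT (log2 change 3.28, SE 0.119, 95% interval 3.03 to 3.53, adjusted p = 6.24e-16), larger in absolute log2 change than 96.1% of tested genes. It was 6.87-fold above Mixed and 11.8-fold above KO. Mixed was 1.41-fold above WT (log2 change 0.50, SE 0.126, adjusted p = 0.0166). That call was lost without Mixed 1 (adjusted p = 0.0745), WT 1 (0.102) or WT 2 (0.086) and with the embryonic day as a covariate (0.187), over a range of 0.000423 to 0.187. From WT to KO the change was not called (log2 change -0.28, SE 0.133, adjusted p = 0.0999). Of 19 alternatives, total-count scaling alone called it (0.0236), over a range of 0.0236 to 0.822. KO was below Mixed (log2 change -0.78, SE 0.128, adjusted p = 4.21e-05), a call lost with the embryonic day as a covariate (adjusted p = 0.248, range 3.12e-10 to 0.248). Nr4a1 lies on chromosome 15 (101254269 to 101274795, plus strand).

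The other receptors of the family were nearly absent. Nr4a2, studied best in dopamine neurons, had 1 to 24 counts per library. Summed over the 3 libraries of a group it had 40 counts in BM, 37 in Mixed, 29 in WT and 25 in KO, or 0.669, 0.573, 0.471 and 0.387 CPM. The exact 95% Poisson intervals of these sums, which cover counting error only, overlapped (0.478 to 0.911 CPM in BM and 0.25 to 0.571 in KO). The intervals of its fold changes were wide. For KO against WT the interval (log2 -1.70 to 1.13) held a 2-fold difference in either direction. For BM against KO the interval (log2 -0.59 to 2.15) held a 2-fold rise but not a 2-fold fall. The counts were low and also differed between libraries of a group, from 1 to 17 within KO. Nr4a3 had 1 count in each of BM 1, BM 2 and Mixed 3 and 0 counts in the other 9 libraries. In a library, 3 counts, the limit that a count of 0 allows, would be 0.127 to 0.167 CPM. Nr4a2 lies on chromosome 2 (57106830 to 57124003, minus strand) and Nr4a3 on chromosome 4 (48045153 to 48086447, plus strand).

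Levels of different genes were compared in the deposited TPM, which is per transcript length. By mean TPM the order was Klf13, Klf6, Klf4, Nr4a1, Klf2, Nr4a2 and Nr4a3 in each of the 4 groups. In BM these levels were 334 ± 18.7, 118 ± 5.02, 95.1 ± 3.41, 51.9 ± 4.77, 10.6 ± 2.7, 0.343 ± 0.268 and 0.0703 ± 0.0616 TPM (SD, n = 3). In WT they were 81.4 ± 5, 58.8 ± 4.7, 26.5 ± 1.17, 5.27 ± 0.578, 1.89 ± 0.179, 0.223 ± 0.106 and 0 TPM. Nr4a1 and Klf2 were neighbours that did not differ beyond their spread in KO (3.7 ± 0.693 and 3.45 ± 0.152 TPM). With CPM per exon length of the annotation in place of TPM, this pair changed order in KO, and so did Klf4 and Klf6 in BM. Nr4a1 made up 95.6 to 99.2% of the NR4A TPM on average in each group.

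Seen within the whole family of 17 KLF genes, Klf13, Klf10, Klf6 and Klf4 had the largest shares in each group. The summed TPM of the family was 795 ± 26.9 in BM, 383 ± 11.1 in Mixed, 289 ± 11.1 in WT and 271 ± 13 in KO. Klf13 made up 42% of it in BM and 28.1% in WT, Klf6 14.9% and 20.4%, and Klf4 12% and 9.17%. Klf2 made up 1.33% in BM, 1.28% in KO and 0.654% in WT. The gene outside the member list with the largest share was Klf10, a factor induced by TGF-beta, with 24.2% in BM, 37.1% in Mixed, 33.7% in WT and 28.5% in KO (named after its values were seen). Klf10 was at 395 ± 12.9 CPM in BM and 302 ± 4.46 in Mixed against 215 ± 21.7 in WT, and both were called (adjusted p = 2.67e-10 and 0.000259). In KO it was at 188 ± 17.3 CPM (log2 change -0.19, adjusted p = 0.0312). That call held in 12 of 19 alternatives (adjusted p from 0.00134 to 0.729) and was lost without BM 2, KO 2, KO 3 or WT 3 (adjusted p = 0.0687, 0.118, 0.132 and 0.196). It was also lost without a filter (0.0509), in a fit of the 2 groups alone (0.114) and with the embryonic day as a covariate (0.729).

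**Figure D3:**
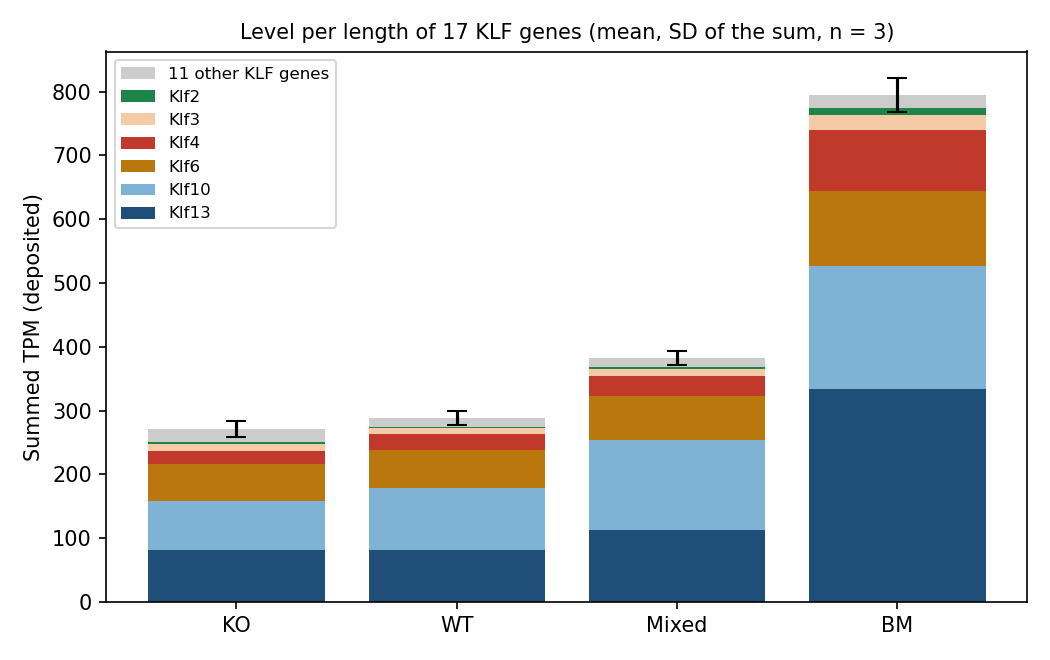
Summed level per length (deposited TPM, axis from 0) of the 17 KLF genes in each group, split by gene. Bars show the mean of 3 libraries and the error bars the SD of the sum; BM has the tallest bar (795 TPM) and Klf13 and Klf10 are its largest parts.

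Of the 13 other KLF genes, 9 were tested. From WT to KO, 4 of them rose and 1, Klf10, fell. Such counts, also in later lists, stand beside 38.1% of all tested genes called in KO against WT and 64% in BM. Klf5, a factor of epithelial and progenitor growth, rose 2.84-fold (13.2 ± 2.52 against 4.65 ± 0.775 CPM, adjusted p = 1.09e-06) and Klf7 2.2-fold (adjusted p = 5.21e-06). Klf8 rose 1.67-fold (adjusted p = 0.00576), a call lost with the embryonic day as a covariate (adjusted p = 0.155, range 0.00163 to 0.155). In BM against WT, 6 rose and 2 fell. Klf11, a relative of Klf10, rose 6.33-fold (20.3 ± 2.09 against 3.22 ± 0.582 CPM). Klf1, the master factor of red cell genes, fell 38.2-fold (0.103 ± 0.0582 against 4.04 ± 1.57 CPM) together with the erythroid markers given above, and Klf5 fell 4.07-fold. Median log2 changes of the 9 were -0.01 in KO and 0.88 in BM. None of the 4 related Sp factors was called in KO with edgeR (0 with an unadjusted p under 0.05 and 0 called by DESeq2), where Sp3 had the highest level (51.8 ± 6.95 and 51.8 ± 2.81 CPM, edgeR adjusted p = 0.995). In BM 3 rose, among them Sp3 (1.63-fold), Sp2 (1.54-fold) and Sp4 (1.45-fold).

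Among 9 tested nuclear receptors that include the retinoid X receptors, with which NR4A1 and NR4A2 can pair, 2 rose and 2 fell in KO. Nr1h3, which encodes a liver X receptor, fell 3.14-fold and Pparg, a lipid-sensing receptor, 2.04-fold (19.6 ± 0.45 against 40.2 ± 3.03 CPM, adjusted p = 3.57e-09). Rxrb rose 1.21-fold (adjusted p = 0.0289). That call was lost without KO 2, KO 3, WT 1 or WT 2 (adjusted p = 0.0781, 0.0899, 0.184 and 0.0646) and with total-count scaling (0.158), over a range of 0.00841 to 0.184. In BM against WT 4 rose and 2 fell. Rxra rose 7.63-fold (27.1 ± 3.67 against 3.55 ± 0.345 CPM, adjusted p = 3.43e-12), while Pparg fell 12.1-fold and Nr1h3 2.62-fold. Of the 12 genes known to act upstream of KLF2, KLF4 or NR4A1, 3 rose and 2 fell in KO. Irf8, a factor that induces Klf4 in myeloid progenitors, rose 2.71-fold (785 ± 50.6 against 289 ± 8.15 CPM, adjusted p = 2.23e-15) where Klf4 fell. Mef2d rose 1.4-fold and Mef2a fell 1.39-fold, both being MEF2 factors that act on the Klf2 promoter in other cells. In BM 6 of the 12 rose and 1 fell, with Irf8 1.87-fold and Mef2d 1.67-fold higher and Mef2c 1.78-fold lower. Over all tested genes, 38.1% were called in KO against WT and 64% in BM against WT.

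Among 6 genes of leukocyte traffic and endothelial function known as KLF2 targets, directly or through other genes, 4 rose and 1 fell in KO, where Klf2 rose. Itgb7, an integrin chain of leukocyte homing, averaged 238 CPM (SD 8.08) in KO, while in WT it averaged 44.4 CPM (SD 2.85; 5.37-fold, adjusted p = 2.96e-17). S1pr1, the receptor through which lymphocytes leave tissues, was at 6.03 ± 1.09 and 1.18 ± 0.579 CPM (5.04-fold). Thbd, the anticoagulant thrombomodulin, fell 1.43-fold (adjusted p = 0.00398). Ccr7, also among the genes that rose and named after its values were seen, was close to the detection limit (0.561 CPM in KO, 0.0752 in WT). Dendritic cell marker sums were also higher in KO, as given above, and their part in these differences was not tested. In BM, where Klf2 was higher still, 3 of the 6 rose and 2 fell. Itgb7 rose 14.1-fold and Thbd 3.48-fold, and Cd69, which holds lymphocytes in tissue, fell 4.87-fold. S1pr1, which rose with Klf2 in KO, fell in BM to 0.358 ± 0.177 CPM (adjusted p = 0.00169).

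Of 16 genes of non-classical monocytes, the fate for which Nr4a1 is needed, 10 rose and 4 fell in BM. Ace, the angiotensin-converting enzyme, was at 58.6 ± 8.3 CPM in BM and 0.163 ± 0.0272 in WT (348-fold, adjusted p = 2.26e-18). Eno3, a muscle-type enolase, rose 8.22-fold, and Tcf7l2, a transcription factor of Wnt signalling, fell 6.78-fold (7.43 ± 0.6 against 50.5 ± 4.67 CPM). In KO, where Nr4a1 was not called, 4 of the 16 rose and 7 fell. The lipid receptor Cd36 rose 32.5-fold, Adgre4, an adhesion receptor, fell 15.2-fold and Itgax, which encodes CD11c and is also in the dendritic cell list, rose 13.9-fold. Median log2 changes were 1.27 in BM and -0.14 in KO.

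NR4A genes, Klf2, Klf4 and Klf6 respond fast to handling and stimulation, and immediate early genes were therefore counted beside them. Of 19 tested, 14 rose and 3 fell in BM against WT (median log2 change 1.60). Dusp1, a phosphatase that ends MAP kinase signals, was at 70.8 ± 31.2 CPM in BM and 7.39 ± 3.01 in WT. Jun reached 104 ± 23.2 CPM in BM, 7.69-fold its WT level, and Fos was at 297 ± 78.5 and 54.2 ± 17.8 CPM. The 3 that fell, named after their values were seen, were Egr1, Ier3 and Socs3. Egr1 was at 1.45 ± 0.447 CPM in BM and 3.82 ± 1.47 in WT (edgeR adjusted p = 0.0047). In KO 3 rose and 2 fell: Ier5 rose 2.75-fold, Btg2 1.73-fold, and Fosl2 fell 1.4-fold. The 6 heat shock genes gave 2 higher and 3 lower in BM. Hspa1a was at 226 ± 37.8 CPM in BM and 10.1 ± 10.9 in WT, and Hspa1b at 15.8 ± 2.6 and 1.31 ± 1.82, both uncertain as near-identical copies, whereas Hsp90aa1 fell 4.56-fold. In KO Hsph1 fell 1.34-fold and Hsp90aa1 rose 1.13-fold. The last call was lost without KO 2 (adjusted p = 0.0982) or WT 3 (0.062), with the embryonic day as a covariate (0.172) and with total-count scaling (0.28), over a range of 0.00322 to 0.28. Most immediate early genes thus moved with Klf2, Klf4, Klf6 and Nr4a1 in bone marrow, and their part in those differences was not tested.

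**Figure D4:**
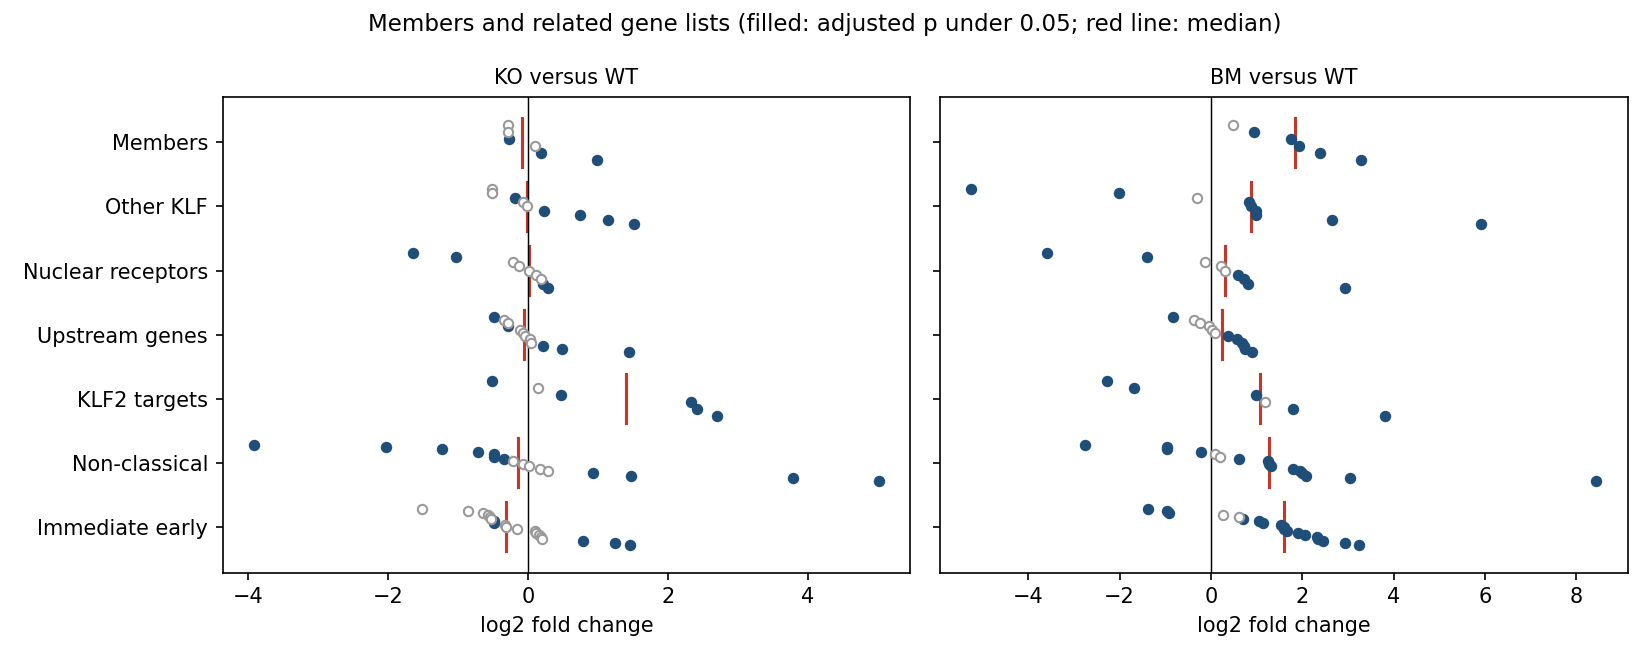
Log2 fold changes (horizontal axis, first group minus second) of the tested members and of the tested genes of 6 related lists, for KO against WT and BM against WT, which share the WT libraries. Filled points passed an adjusted p under 0.05 and the red line is the median of the list; in BM the members' median is 1.84 and that of immediate early genes 1.60.

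Genes whose level followed a member most closely were sought over the 12 libraries by Pearson correlation of log2 CPM. This is a description, since the libraries form 4 groups and the correlation mainly reflects the group means. Closest to Nr4a1 were Slc2a6 (r = 0.9959), Rab36 (0.9957) and Dstyk (0.9956). Slc2a6, a glucose transporter, averaged 142 CPM in BM, 10.2 in Mixed, 7.51 in WT and 5.15 in KO, the order of Nr4a1. Klf4 was followed most closely by Mlkl (0.9969), the executor of necroptosis, Tmem71 (0.9963) and Sulf2 (0.9961). For Klf13 these were Cyp4f18 (0.9977), Ikbkb (0.9973), a kinase that activates NF-kB, and Rab5b (0.9962). For Klf6 they were Sowahc (0.9934), Arhgap45 (0.9919) and Nhsl2 (0.9851). The genes nearest to Klf2 were Dcaf11 (0.9865), Rasa4 (0.9847) and Msrb1 (0.9832). Rasa4, a Ras GTPase-activating protein, shared the rise in KO, with 108 CPM in BM, 30.1 in KO and 13.2 in WT. Nr4a2, with few counts, had no gene above 0.8287 (Nsmce3, then Pex7 at 0.7894 and Napg at 0.7525).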

How the data were processed

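The values were estimated counts per gene that the authors deposited for the whole series, and the authors also deposited TPM. Their CPM values were not used. The submitters' processing notes list build mm10 and the tools Salmon, featureCounts, Subread, STAR and DRAGEN. What each was used for is not given in the sources used here. Of the nonzero counts 28.6% were not whole (tolerance 1e-06). Counts were rounded, and 287 repeated entries with identical values were removed. Library preparation used the SMARTer Ultra Low kit, per the labels' protocols. Use of strand in counting is not given.

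Genes were filtered with filterByExpr (minimum count 10, minimum total 15), scaled by TMM and tested with edgeR 4.0.16 (glmQLFit, robust) in 1 fit over all 12 libraries, with a mean per group (R 4.3.3, limma 3.58.1). Two-sided p-values were adjusted over 14618 genes (Benjamini-Hochberg). DESeq2 1.42.0 was an alternative, as were other scaling, no filter, 2-group fits, the replicate number, the embryonic day and leaving out each library. The fit was tested on simulated data.

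Members, gene lists and tests were chosen with earlier results of these data known. Genes outside the members were named by a rule: for each member the 3 genes of highest correlation, among those averaging at least 3 log2 CPM and without predicted genes, pseudogenes and RIKEN clones. In each list these were up to 3 called genes of largest change (average at least 1 log2 CPM) in KO or BM against WT, or, with none called, the gene of highest level. Zeb2 and Maf were added as genes of the series title. Genes that overlap Klf13 were named by position. Single cell type markers (Ms4a1, Cd79b, Egfl7, Cldn5, Esam and Cd3e) were named after their values were seen. Other genes are said to be so where they are named. The labels do not say that libraries of a group are separate animals, so the p-values rest on a spread among libraries that may be only technical. Positions are from GENCODE M21 (GRCm38, the assembly that mm10 denotes).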

Additional observations from a re-analysis of the deposited data

How the results depend on the processing

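Of 665 values of tested members recomputed under an alternative, 641 kept their direction and side of the threshold, 12 lost a call, 1 gained one and 11, none of them called, changed sign. Every call of BM against a fetal liver group was kept in its 18 alternatives. With the embryonic day as a covariate over fetal liver libraries, 1 member was called in Mixed against WT (399 genes over all, against 1180) and 1 in KO against Mixed (1978 genes over all, against 5365). That fit takes the effect of age from WT 1 alone set against WT 2 and WT 3. Fits without 1 library called 1 to 2 members in Mixed against WT, and 414 to 1457 genes, the lowest counts being those without Mixed 1 (414), Mixed 3 (665), WT 1 (464) and WT 2 (688). Sign changes, with their cause not tested, were those of Klf6 in KO against Mixed (log2 -0.08 with total-count scaling, -0.11 with the embryonic day, and -0.03 to 0.07 without 1 library) and of Nr4a2. Nr4a2 was at 0.46 in KO against WT and 0.40 in KO against Mixed with the embryonic day. Without 1 library it ran from -1.32 to 0.18 in KO against WT, -0.15 to 0.64 in Mixed against WT, -0.18 to 0.75 in BM against WT and -0.48 to 0.64 in BM against Mixed. Total-count scaling moved the median of all genes in KO against WT to -0.13 and in KO against Mixed to -0.123, and the split of called genes from 2654 higher and 2911 lower to 2046 and 4255, and from 2654 and 2711 to 2037 and 4007. The replicate numbers of the titles did not pair libraries: same-numbered libraries of different groups had deviations correlated at -0.035 to 0.069, and with the replicate number as a block 3 members were called in KO against WT, 2 in Mixed against WT and 5 in BM against WT, with no member's call changed. Levels per length by CPM per exon length differed in scale from TPM and changed the order of Klf4 and Klf6 in BM and of Klf2 and Nr4a1 in KO. Counts were low for Nr4a2 and Nr4a3, and for Klf2 in fetal liver.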

Other observations

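Within groups, Nr4a1 and the summed immediate early genes often put the 3 libraries in the same order. In BM 1, BM 2 and BM 3 the sum was 1443, 1816 and 2096 CPM and Nr4a1 was at 79, 89 and 94.3 CPM. In WT 1, WT 2 and WT 3 the sum was 499, 518 and 668 CPM beside 7.92, 8.18 and 10.9 CPM of Nr4a1, and in KO 1, KO 2 and KO 3 it was 621, 524 and 662 CPM beside 7.96, 6.04 and 8.07 CPM. In Mixed the order differed, with sums of 620, 655 and 656 CPM and 13, 13.1 and 12.1 CPM. The BM libraries had the same order for Klf2 (8.02, 10.2 and 14 CPM). The order of Nr4a1 was not particular to immediate early genes. The non-classical monocyte genes had it in BM (1201, 1258 and 1263 CPM), WT (577, 587 and 636) and KO (573, 556 and 590). In BM, neutrophil, B cell, plasmacytoid dendritic cell and erythroid marker sums and the upstream genes had it too. In WT, other KLF genes and classical monocyte, conventional dendritic cell, B cell, erythroid, tissue macrophage and mast cell sums had it. Tissue macrophage and mast cell sums had it in KO, while some other lists did not. With 3 libraries in a group, likeness of order was not tested. Mixed libraries had sums inside the range of WT and KO libraries while their Nr4a1 lay above both.

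Klf9, a factor responsive to glucocorticoids, was at 7.25 ± 0.83 CPM in BM and 0.111 ± 0.0687 CPM in WT (log2 change 5.92, SE 0.497, edgeR adjusted p = 7.98e-10, n = 3 per group). It was named after its values were seen, as it averages under the limit of the naming rule. The glucocorticoid receptor gene Nr3c1, also named after its value was seen, was at 91.7 CPM in BM and 52.3 CPM in WT (adjusted p = 2.65e-08).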
